A study of Homo sapiens with 12 samples.

Results

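The genes described here are 37 protein-coding genes of ribosome biogenesis, chosen by symbol from a list of nucleolar factors that are known as classical MYC targets. All 37 were found among the 25528 rows of the expression table. The cells were HT-29, an established colon adenocarcinoma line that carries mutant APC, and every group shares that genotype. Each of the 12 libraries came from cells infected with lentivirus, in 4 groups of 3. In the ORF arm the virus carried an open reading frame for GFP, the control, or for CTNNB1, which encodes beta-catenin, and cells were taken 2 days after infection. In the hairpin arm the virus carried shNT1, the control hairpin, or shAPC, a hairpin against APC, and cells were taken 1 day after induction with 2 µM doxycycline. The labels do not name the promoter that drives the constructs, the number of shAPC hairpins or whether the libraries of a group came from separate cultures, so p-values measure only the spread between these libraries. Because the arms differ in vector, day and doxycycline, each group was compared with the control of its own arm.

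Ribosome biogenesis begins in the nucleolus, where RNA polymerase I transcribes the long precursor of the ribosomal RNAs. Small nucleolar ribonucleoproteins (snoRNPs) then modify that precursor: those of the box C/D class methylate riboses and those of the box H/ACA class convert uridines to pseudouridines. Processing factors cleave, fold and trim the RNA into the small and the large subunit, and many of their genes are bound and activated by MYC with its partner MAX. In the intestine MYC is itself a target of beta-catenin, and APC belongs to the complex that marks beta-catenin for degradation.

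Expression is given in TPM, which is scaled for transcript length and to a total of 1000000 in each library, so levels can be compared between genes. TPM keeps no sequencing depth, so depth is unknown and no counting interval is given. The libraries held between 14756 and 16186 genes above 0, and Pearson correlations of log2(TPM + 1) within groups were 0.9912 to 0.9974. Of 10 markers of colon epithelium, 7 averaged at least 1 TPM, while CDX1, CDX2 and CDH17 stayed below 1 TPM in every library. None of 6 fibroblast and 4 endothelial markers reached a mean of 1 TPM. Of 5 leukocyte markers LYZ and CD68 exceeded it, whereas PTPRC reached at most 0.0217 TPM and CD3E was at 0 in all libraries. The mean level of APC was 16.4 TPM with shNT1 and 5.99 TPM with shAPC, and that of CTNNB1 was 146 TPM with GFP and 160.0 TPM with the CTNNB1 frame, a difference that was not called (limma adjusted p = 0.059). Values below are log2 fold changes on the log2(TPM + 1) scale from limma, and a gene is said to have risen or fallen where its Benjamini-Hochberg adjusted p over all genes tested was under 0.05.

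With APC knocked down, NOLC1, RRP9 and BOP1 fell most among these genes, and none of the 37 rose. In shAPC against shNT1, 14 of the 37 fell (37.8%), 0 rose and 23 were not called. Of all 11834 genes tested 22.1% were called, with 14.9% lower and 7.24% higher. In a separate fit of genes averaging at least 5 TPM, 19% were called lower, and TCOF1 and MYBBP1A were called besides the 14. The 14 were NOLC1, RRP9, BOP1, NOP16, UTP20, DDX21, LYAR, GNL3, RCL1, RRP12, DDX18, NOP14, NOP56 and DKC1. The median log2 fold change of the 37 was -0.15, a fall of 9.76%, with a range from -0.46 to 0.05, and 34 of them lay below 0. The median over all genes tested was -0.04, and 28 of the 37 lay below it. The shAPC libraries lay wholly below the shNT1 libraries for 20 of the 37 (54.1%) and wholly above for 0, against 26.4% and 14.5% of all genes. NOLC1, RRP9, BOP1, NOP16 and DDX21 were called in all 14 alternative fits of this arm, including each of the 6 that left out 1 library. The other 9 calls were lost in at least 1 fit. Quantile normalization, which gives all libraries the same distribution of values, left 8 lower and 0 higher (11.6% and 11.3% of all genes), with a median of -0.08 over the 37. With all libraries kept, NOP56, NOP14, RRP12, UTP20 and DDX18 lost their calls under quantile normalization, without the filter on low values and without the variance trend. DKC1 and GNL3 lost theirs under quantile normalization, where NCL was called, and RCL1 lost its call without the filter. Among fits without a library, the count was 7 without shAPC replicate 2, 7 without shAPC replicate 3, 9 without shNT1 replicate 2 and 9 without shNT1 replicate 3. Without shNT1 replicate 1, 10 of the 14 calls were kept and MYBBP1A was added. Without shAPC replicate 1, 13 of the 14 were kept. The share of all genes called in these fits is not given, so the counts are not read as results about the members.

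With the CTNNB1 frame WDR74 and RRP9 fell, 0 rose and 35 were not called, so that 5.41% were called lower beside 7.16% of the 11624 genes tested, while 16.3% of those genes rose and 23.5% were called in either direction. The median log2 fold change of the 37 was -0.03, a fall of 1.81%, with a range from -0.27 to 0.11. The median over all genes was 0.06 in this arm, and 33 of the 37 lay below it. The groups did not overlap, with CTNNB1 lower, for 8 of the 37 (21.6%; 13% of all genes), and with CTNNB1 higher for 2 (30.2% of all genes). How many members fell depended on the scaling. When libraries were aligned on the median ratio of their genes, the median over all genes moved from 0.06 to -0.01, and 10 members were called lower (27%; 12.6% of all genes) and 0 higher (10.8%). The 8 added calls were NOLC1, LYAR, RRP12, BYSL, PNO1, NOP2, WDR12 and RRS1. In the hairpin arm the same scaling gave 15 lower and 0 higher (40.5%; 13.4% of all genes lower and 10.7% higher).

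**Figure D1:**
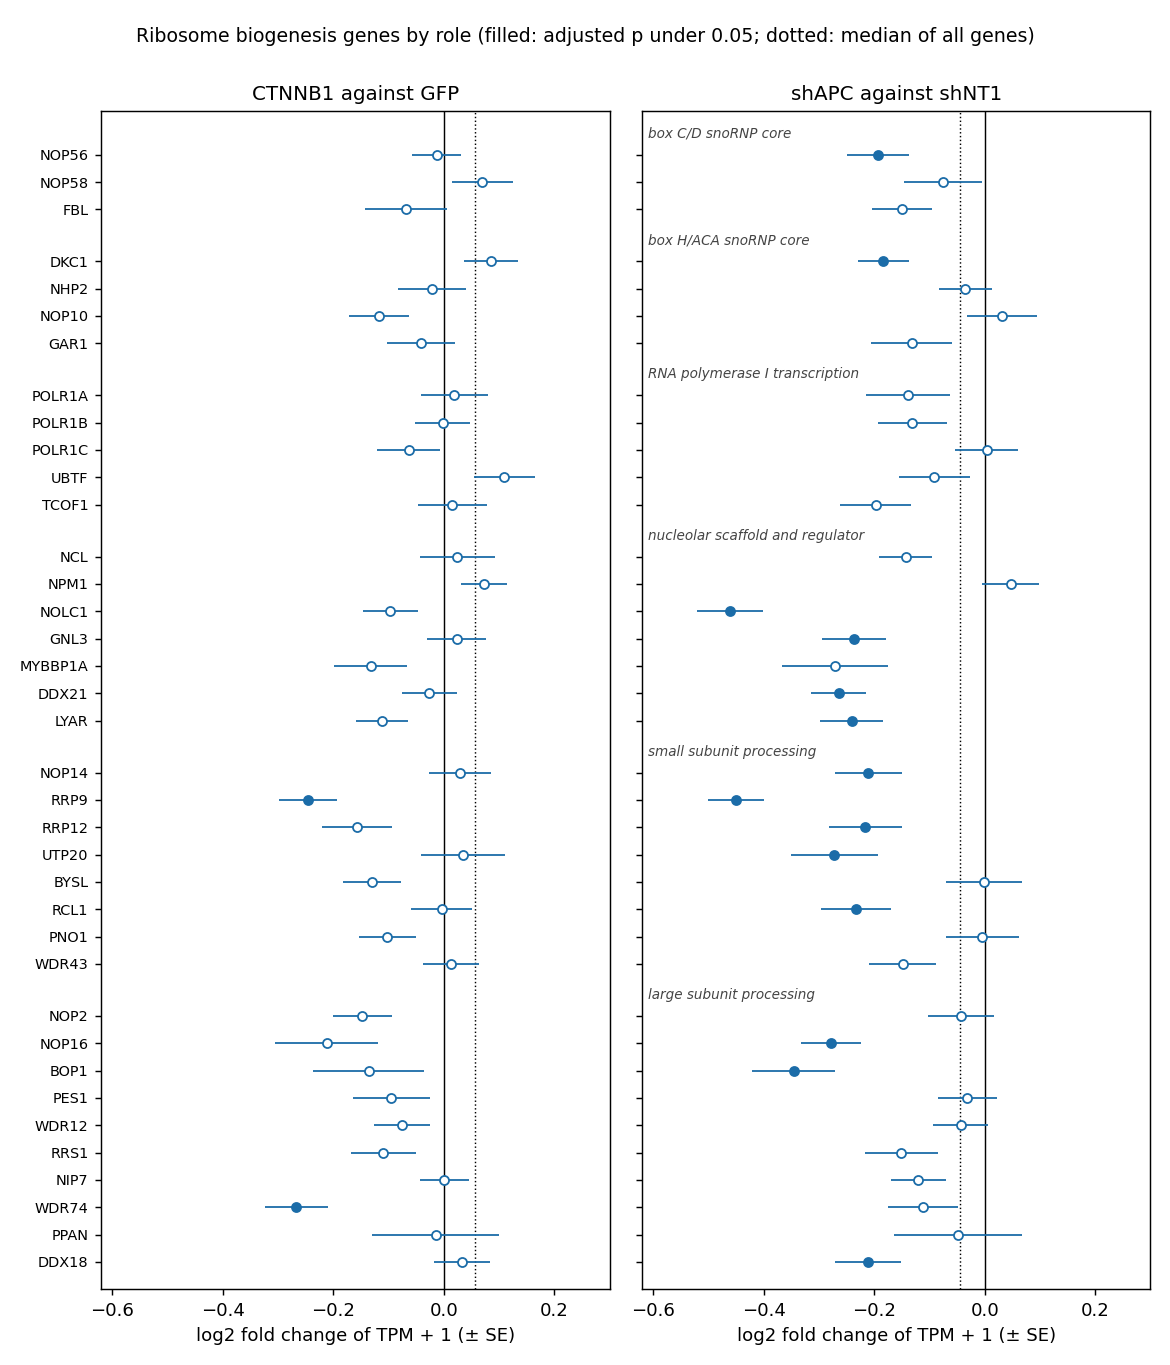
Log2 fold change of TPM + 1 (x axis, ± SE) of each of the 37 genes, grouped by role, for CTNNB1 against GFP (left) and shAPC against shNT1 (right), 3 libraries per group. Filled points passed limma at an adjusted p under 0.05, and the dotted line is the median of all genes tested; 2 filled points stand left of 0 in the left panel and 14 in the right.

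Summed over the 37 genes, the share of all TPM was 0.962% ± 0.02 in GFP and 0.961% ± 0.03 in CTNNB1 (SD, n = 3 each). It was 0.932% ± 0.018 in shNT1 and 0.878% ± 0.013 in shAPC. The mean log2(TPM + 1) of the 37 ran from 6.68 to 6.77 in the shNT1 libraries and from 6.53 to 6.59 in the shAPC libraries, with no overlap. In GFP it ran from 6.76 to 6.85 and in CTNNB1 from 6.72 to 6.79, and these ranges overlapped. The level of single members spanned a wide range: 17 averaged at least 100 TPM over the 12 libraries, led by NPM1 and NCL, and only PPAN averaged under 30 TPM.

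**Figure D2:**
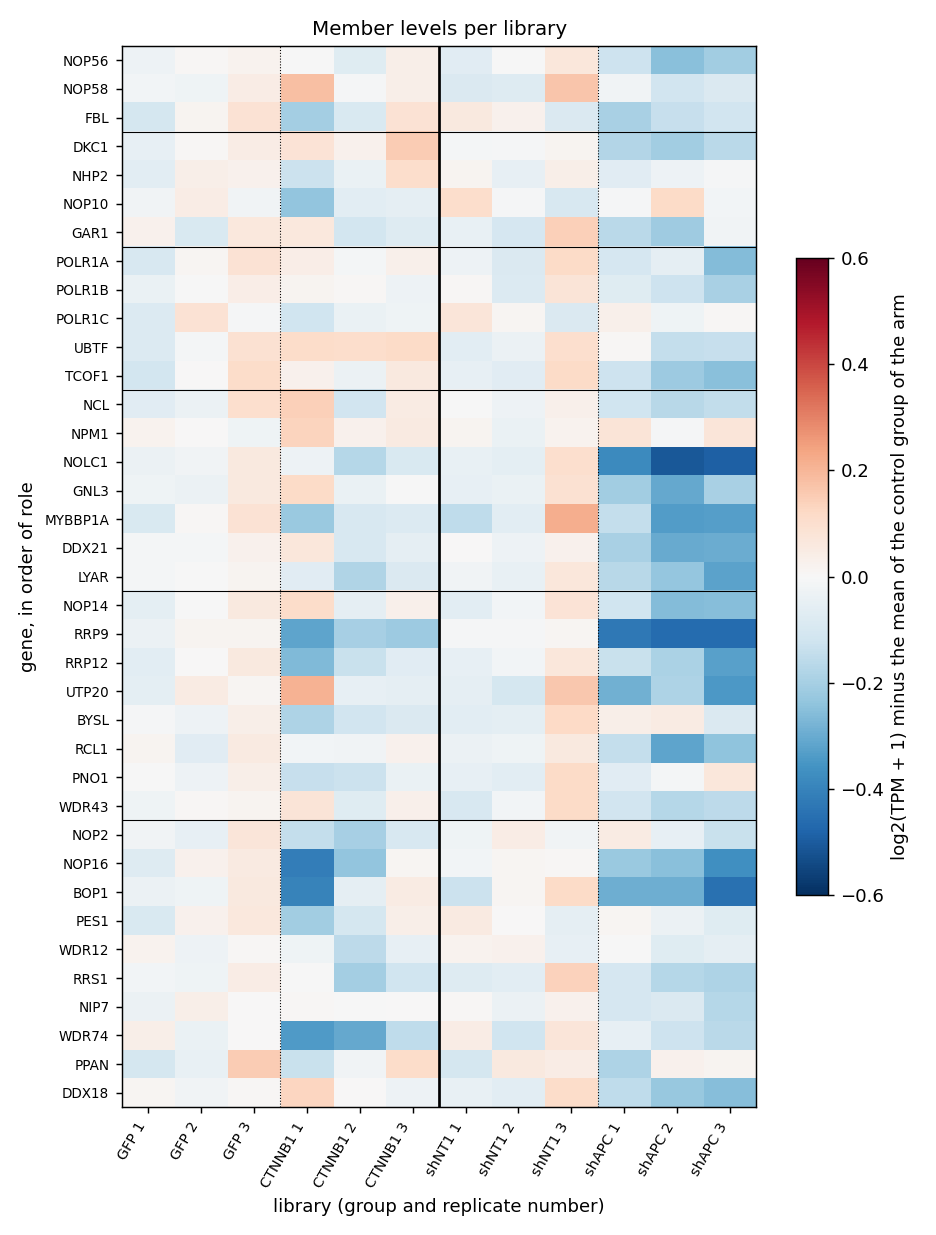
Level of each of the 37 genes (rows, in order of role, horizontal lines between roles) in each of the 12 libraries (columns), as log2(TPM + 1) minus the mean of the control group of the same arm. Blue is below and red above the control mean; the shAPC columns are blue for most rows and darkest for NOLC1 and RRP9, while in the CTNNB1 columns the rows of WDR74 and RRP9 are blue in all 3.

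The promoters of the members were searched for sequences of their usual regulator and of the WNT pathway. CACGTG is the palindromic E-box bound by MYC with MAX, and CTTTGA is the core of TCF/LEF sites, through which beta-catenin acts. Both were searched on both strands of the RefSeq promoters (GRCh38.p14), which run from 250 bases before to 50 bases after each start. Of the 37 genes, 30 had a promoter in the table, with 39 promoters in all. The 7 without one were NOLC1, BOP1, RRP12, DDX18, NOP58, RRS1 and TCOF1. An E-box stood in 16 of those 39 (41%), against 7.26% of all 35116 promoters of the same length. By gene this was 16 of 30 (53.3%), against 12.9% of 9005 tested genes with a promoter there. Within 25 bases before to 31 bases after the start it stood in 25.6% of the members' promoters and 1.4% of all. The TCF/LEF core stood in 3 of the 39 (7.69%), against 12.9% of all promoters. Among the searched members that fell in shAPC, 7 of 10 had an E-box (70%), and among those not called 9 of 20 did (45%), a difference that was not tested. The median shAPC log2 fold change was -0.18 for the 16 genes with an E-box and -0.12 for the 14 without. A match is a description of the letters and not of binding. The members were chosen as known MYC targets, so their E-box shares are not independent of that choice. The 4 members below have an E-box and were taken in order of their change from those that the naming rule selects, which leaves out MYBBP1A and LYAR. Each is shown from 100 bases before to 30 after a RefSeq start, 5′ to 3′ on the gene's strand, with the E-box in capitals. DDX21 and GNL3 each have another RefSeq promoter, without an E-box, that is not shown. That other promoter of DDX21 has the TCF/LEF core. RRP9 is on the minus strand at chr3:51941875-51942004, and its E-box begins 5 bases before the start. UTP20 is on the plus strand at chr12:101280005-101280134, with the E-box beginning 10 bases before the start. DDX21 is on the plus strand at chr10:68956547-68956676, with the E-box beginning 31 bases before the start. GNL3 is on the plus strand at chr3:52685932-52686061, with the E-box at position 7 of the transcribed part, counted from its first base.
RRP9: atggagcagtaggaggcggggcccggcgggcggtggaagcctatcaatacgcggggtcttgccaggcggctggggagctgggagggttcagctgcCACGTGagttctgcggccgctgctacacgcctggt
UTP20: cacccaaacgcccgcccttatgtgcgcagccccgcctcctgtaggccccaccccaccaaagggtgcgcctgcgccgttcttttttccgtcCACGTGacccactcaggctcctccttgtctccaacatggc
DDX21: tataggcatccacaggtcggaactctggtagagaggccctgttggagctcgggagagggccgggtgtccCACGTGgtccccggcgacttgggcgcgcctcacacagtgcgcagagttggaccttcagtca
GNL3: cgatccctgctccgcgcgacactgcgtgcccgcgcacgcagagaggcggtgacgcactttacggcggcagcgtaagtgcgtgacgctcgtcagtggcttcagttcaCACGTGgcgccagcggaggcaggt

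The box C/D snoRNP core comprises NOP56 and NOP58, which scaffold the particle, and FBL, the methyltransferase. In shAPC 1 of the 3 fell, with a group median of -0.15, and none was called in CTNNB1, beside 14.9% and 7.16% of all genes called lower. NOP56 was at 207, 217 and 228 TPM in shNT1 and at 199, 183 and 188 TPM in shAPC. Every shAPC library lay below every shNT1 library, and the change was -0.19 (SE 0.06, limma adjusted p = 0.034). That call was lost without shNT1 replicate 2 (adjusted p = 0.075), shNT1 replicate 3 (0.073), shAPC replicate 2 (0.11) or shAPC replicate 3 (0.099). FBL was at 845, 826 and 762 TPM in shNT1 and at 707, 737 and 748 TPM in shAPC, also without overlap (-0.15, SE 0.05, limma adjusted p = 0.077). Without shNT1 replicate 3 the adjusted p of FBL was 0.022. NOP58 overlapped between the groups (-0.08, SE 0.07, limma adjusted p = 0.48). For CTNNB1 against GFP, the changes were -0.01 for NOP56 (SE 0.04, limma adjusted p = 0.86), 0.07 for NOP58 (SE 0.06, limma adjusted p = 0.39) and -0.07 for FBL (SE 0.07, limma adjusted p = 0.54).

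The box H/ACA core comprises DKC1, the pseudouridine synthase dyskerin, with NHP2, NOP10 and GAR1. In shAPC 1 of the 4 fell, with a median of -0.08, and none was called in CTNNB1 (14.9% and 7.16% of all genes lower). DKC1 was at 177, 178 and 181 TPM in shNT1 and at 158, 154 and 159 TPM in shAPC. The groups were well separated, and the change was -0.18 (SE 0.05, limma adjusted p = 0.018). The call was lost without shNT1 replicate 1 (adjusted p = 0.065), shNT1 replicate 2 (0.056) or shAPC replicate 2 (0.064), and under quantile normalization (0.082). In the other arm DKC1 was at 178, 185 and 189.6 TPM in GFP and at 195, 187 and 205 TPM in CTNNB1. Those groups overlapped (0.09, SE 0.05, limma adjusted p = 0.23). The other 3 subunits ranged from -0.13 to 0.03 in shAPC and from -0.12 to -0.02 in CTNNB1, none of them called.

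The genes of RNA polymerase I transcription were not called in either arm. POLR1A, the largest subunit, averaged 29.5 ± 2.3 TPM with shNT1 and 26.7 ± 2.0 TPM with shAPC (SD, n = 3 each), a change of -0.14 (SE 0.08, limma adjusted p = 0.22). In the ORF arm it averaged 33.6 and 34.0 TPM (0.02, SE 0.06, limma adjusted p = 0.84). UBTF, the factor that holds ribosomal DNA in an active state, stood at 63.7 ± 4.0 TPM in shNT1 and at 59.8 ± 3.6 TPM in shAPC (-0.09, SE 0.06, limma adjusted p = 0.34). It averaged 59.7 ± 3.6 TPM in GFP and 64.4 ± 0.28 TPM in CTNNB1, with every CTNNB1 library above every GFP library (0.11, SE 0.05, limma adjusted p = 0.18). TCOF1, the nucleolar protein treacle, came closest to a call in shAPC (-0.20, SE 0.06, limma adjusted p = 0.053), its groups did not overlap, and it was called under median-ratio scaling (adjusted p = 0.045). POLR1B and POLR1C, also subunits, had uncalled values of -0.13 and 0.00 in shAPC and of 0.00 and -0.06 in CTNNB1.

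Nucleolar scaffolds and regulators held the largest fall. In shAPC 4 of the 7 fell (14.9% of all genes), with a median of -0.24, and none was called in CTNNB1 (7.16% of all genes). Under median-ratio scaling 2 of the 7 were called lower in CTNNB1 (28.6%), beside 12.6% of all genes. NOLC1, also called Nopp140, is a chaperone of snoRNPs that shuttles through the nucleolus (ENSG00000166197, GRCh38 chromosome 10, 102152176 to 102163871, plus strand). It was at 246, 244 and 273 TPM in shNT1 and at 195, 178 and 180.5 TPM in shAPC. The highest shAPC library was far below the lowest shNT1 library, and NOLC1 fell by 27.3% (log2 fold change -0.46, SE 0.06, limma adjusted p = 0.00061). With the ORF viruses it was at 254, 257 and 271 TPM in GFP and at 254, 231 and 245 TPM in CTNNB1. The difference of -0.10 (SE 0.05) was not called (limma adjusted p = 0.19). It was called without CTNNB1 replicate 1 (adjusted p = 0.048) and, with all libraries kept, under median-ratio scaling (-0.17, adjusted p = 0.022).

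DDX21, an RNA helicase that acts in transcription by RNA polymerase I and in processing, was at 327, 319.6 and 332 TPM in shNT1 and at 285, 265 and 265 TPM in shAPC (ENSG00000165732, GRCh38 chromosome 10, 68956128 to 68985073, plus strand). The groups were separate and the change was -0.26 (SE 0.05, limma adjusted p = 0.0047). In GFP it was at 338, 338 and 347 TPM and in CTNNB1 at 358, 319 and 329 TPM, so that the CTNNB1 libraries spanned the GFP libraries (-0.03, SE 0.05, limma adjusted p = 0.73). GNL3, or nucleostemin, is a GTPase of the nucleolus found in proliferating and stem cells. It was at 151, 153 and 167 TPM in shNT1 and at 136, 126 and 137 TPM in shAPC (-0.24, SE 0.06, limma adjusted p = 0.017), and the call was lost without shAPC replicate 2 (adjusted p = 0.066) and under quantile normalization (0.06). Between CTNNB1 and GFP, GNL3 differed by 0.02 (SE 0.05, limma adjusted p = 0.78). LYAR, a nucleolar zinc finger protein, fell by 15.4% in shAPC (-0.24, SE 0.06, limma adjusted p = 0.015), a call lost without shAPC replicate 3 (adjusted p = 0.062). LYAR was also lower in CTNNB1 without overlap (-0.11, SE 0.05, limma adjusted p = 0.11). It was called there under median-ratio scaling and without CTNNB1 replicate 1. Its difference between the arms was not called (0.13, SE 0.07, limma adjusted p = 0.24).

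NCL and NPM1 encode nucleolin and nucleophosmin, the 2 most abundant members. NCL was at 1596, 1565 and 1635 TPM in shNT1 and at 1473, 1424 and 1445 TPM in shAPC. The libraries did not overlap, but the change of -0.14 (SE 0.05) was not called (limma adjusted p = 0.058). NPM1 was at 2706, 2602 and 2715 TPM in shNT1 and at 2817, 2658 and 2814 TPM in shAPC, with overlap (0.05, SE 0.05, limma adjusted p = 0.56). In the ORF arm the changes were 0.02 for NCL (SE 0.07, limma adjusted p = 0.82) and 0.07 for NPM1 (SE 0.04, limma adjusted p = 0.23). NPM1 has 45 annotated pseudogenes, and how shared reads were assigned is not given in the sources used here, so its level is uncertain. MYBBP1A, a repressor and processing factor of the nucleolus, stood at -0.27 in shAPC (SE 0.10, limma adjusted p = 0.068; 0.035 without shNT1 replicate 1) and at -0.13 in CTNNB1 (SE 0.07, limma adjusted p = 0.17).

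**Figure D3:**
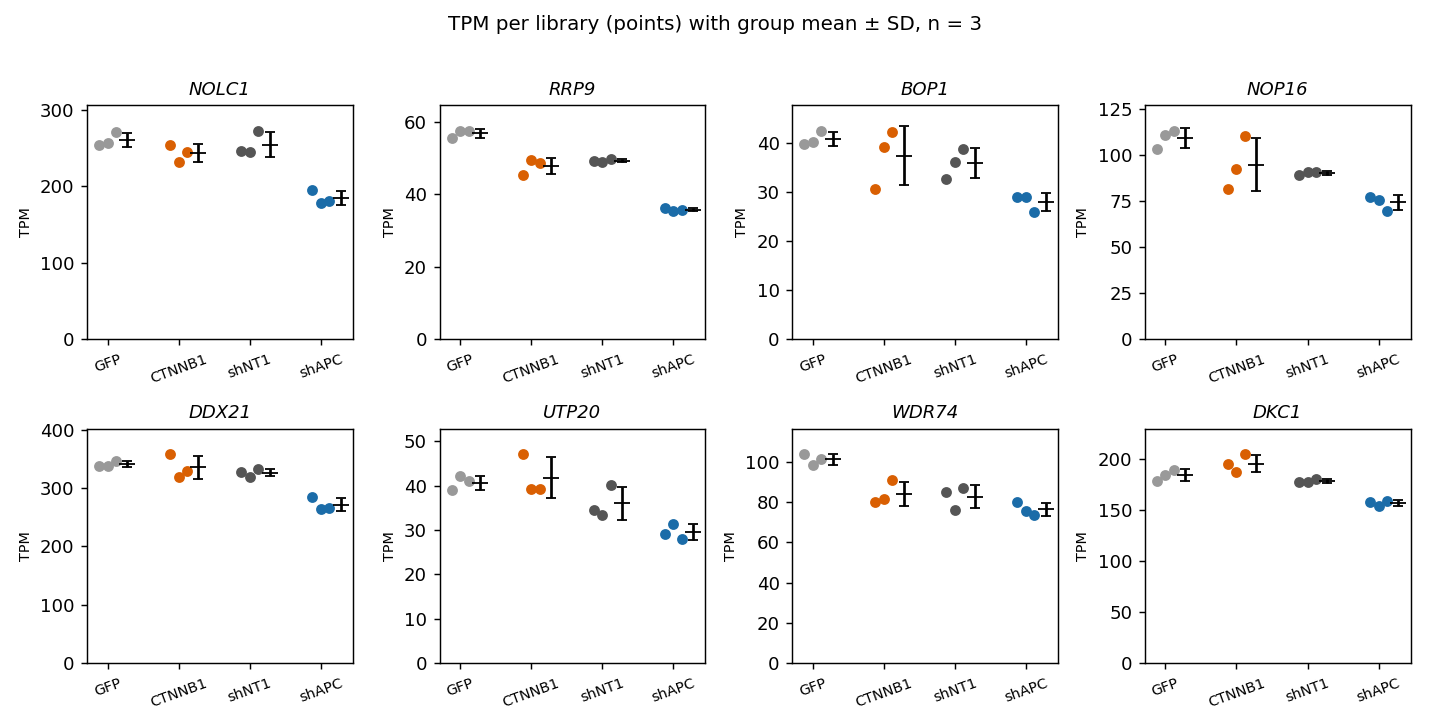
TPM (y axis, from 0) of 8 genes in each of the 12 libraries (points, by group) with the mean ± SD of each group of 3 beside them. For NOLC1, RRP9, BOP1, NOP16, DDX21, UTP20 and DKC1 all shAPC points lie below all shNT1 points, and for WDR74 and RRP9 all CTNNB1 points lie below all GFP points.

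Small subunit processing was the role with the most calls. In shAPC 5 of the 8 fell (14.9% of all genes), with a median of -0.21. In CTNNB1 1 of the 8 fell, with a median of -0.05, a share near the 7.16% of all genes. Under median-ratio scaling 4 of the 8 were called lower in CTNNB1 (50%), beside 12.6% of all genes. In the main fit all 8 lay below the median of all genes in that arm. The CTNNB1 libraries lay wholly below the GFP libraries for 4 of the 8 (50%), beside 13% of all genes. RRP9, a protein of the U3 snoRNP that guides early cleavages of the precursor, was the only member to fall in both arms (ENSG00000114767, GRCh38 chromosome 3, 51933430 to 51941941, minus strand). It was at 49.0, 48.9 and 49.7 TPM in shNT1 and at 36.3, 35.5 and 35.5 TPM in shAPC. Both sets of 3 were tight, and RRP9 fell by 26.8% (log2 fold change -0.45, SE 0.05, limma adjusted p = 0.00023). With the ORF viruses it was at 55.4, 57.4 and 57.5 TPM in GFP and at 45.4, 49.3 and 48.6 TPM in CTNNB1. Again the groups were separate, with a log2 fold change of -0.25 (SE 0.05, limma adjusted p = 0.0091), and the call was lost without GFP replicate 2 (adjusted p = 0.051). The GFP libraries were higher than the shNT1 libraries, and the CTNNB1 libraries stood near the level of shNT1.

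UTP20, a large scaffold of the small subunit processome, was at 34.5, 33.3 and 40.3 TPM in shNT1 and at 29.2, 31.5 and 28.1 TPM in shAPC. The groups did not overlap, and the change was -0.27 (SE 0.08, limma adjusted p = 0.033). The call was lost without shNT1 replicate 3 (adjusted p = 0.069), shAPC replicate 1 (0.093) or shAPC replicate 3 (0.11). In the other arm UTP20 was at 38.9, 42.1 and 41.0 TPM in GFP and at 47.1, 39.2 and 39.2 TPM in CTNNB1, replicate 1 standing above the rest (0.03, SE 0.08, limma adjusted p = 0.77). The other falls in shAPC were those of RCL1 (-0.23), RRP12 (-0.22) and NOP14 (-0.21), each lost without shNT1 replicate 2 or 3 or shAPC replicate 2 or 3. Without those libraries in turn, the adjusted p ranged from 0.053 to 0.096 for RCL1, from 0.079 to 0.15 for RRP12 and from 0.063 to 0.11 for NOP14. RCL1 and RRP12 were lost as well without shNT1 replicate 1 (0.055 and 0.067). WDR43 stood at -0.15 and BYSL and PNO1 at 0.00, none of them called. BYSL and PNO1, which act in late maturation of the small subunit, were lower in CTNNB1 without overlap (-0.13 and -0.10), short of a call.

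Of the large subunit factors 3 of 10 fell in shAPC (14.9% of all genes), with a median of -0.12. In CTNNB1 1 of the 10 fell, with a median of -0.10, a share near the 7.16% of all genes. Under median-ratio scaling 4 of the 10 were called lower in CTNNB1 (40%), beside 12.6% of all genes. In the main fit all 10 lay below the median of all genes in that arm. The CTNNB1 libraries lay wholly below the GFP libraries for 2 of the 10 (20%), beside 13% of all genes. BOP1 and PES1 are partners in the PeBoW complex, with WDR12, and are needed to mature the large subunit RNAs. BOP1 was at 32.7, 36.2 and 38.8 TPM in shNT1 and at 29.02, 29.05 and 26.0 TPM in shAPC. The groups did not overlap, and the change was -0.35 (SE 0.08, limma adjusted p = 0.0096). PES1 stood at 69.5 ± 2.7 TPM in shNT1 and at 68.0 ± 1.9 TPM in shAPC (-0.03, SE 0.05, limma adjusted p = 0.71), and WDR12 stood at -0.04 (SE 0.05, limma adjusted p = 0.57). Thus 1 of the 3 PeBoW genes was called, and whether they differed from one another was not tested. In the ORF arm BOP1 was at 39.9, 40.2 and 42.6 TPM in GFP and at 30.7, 39.3 and 42.3 TPM in CTNNB1, a wide spread set by replicate 1 (-0.14, SE 0.10, limma adjusted p = 0.36). PES1 there stood at -0.09 (SE 0.07, limma adjusted p = 0.35).

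NOP16, a nucleolar protein of the large subunit pathway, was at 89.0, 90.8 and 90.7 TPM in shNT1 and at 77.2, 75.7 and 69.7 TPM in shAPC. It fell by 17.6% (-0.28, SE 0.05, limma adjusted p = 0.0057). Its exons overlap those of ARL10 and HIGD2A on the opposite strand, and the strand setting is not given, so its level is uncertain. In GFP NOP16 was at 103, 111 and 113 TPM and in CTNNB1 at 81.5, 92.3 and 110.0 TPM. The 3 CTNNB1 libraries were far apart and 1 of them lay within the GFP range (-0.21, SE 0.09, limma adjusted p = 0.13), and without CTNNB1 replicate 3 it was called (adjusted p = 0.0089). WDR74, which acts in remodelling of early large subunit particles, had the largest change in CTNNB1 (ENSG00000133316, GRCh38 chromosome 11, 62832342 to 62841809, minus strand). It was at 104, 98.5 and 101.5 TPM in GFP and at 79.8, 81.6 and 90.8 TPM in CTNNB1. The groups were separate, and the change was -0.27 (SE 0.06, limma adjusted p = 0.0095), a call kept in all 14 alternative fits. In the hairpin arm WDR74 was at 85.3, 76.0 and 87.1 TPM in shNT1 and at 79.96, 75.7 and 73.8 TPM in shAPC, with overlap (-0.11, SE 0.06, limma adjusted p = 0.24). Its exons overlap those of TEX54 on the same strand, so shared reads could not be told apart. DDX18, a helicase, fell in shAPC (-0.21, SE 0.06, limma adjusted p = 0.031). That call was lost without shNT1 replicate 1 (adjusted p = 0.051), shNT1 replicate 3 (0.065), shAPC replicate 2 (0.089) or shAPC replicate 3 (0.11). NOP2, RRS1 and NIP7 were not called in either arm. Neither was PPAN, which is read through into P2RY11. NOP2 was lower in CTNNB1 without overlap (-0.15, SE 0.05, limma adjusted p = 0.073). It was called lower there under median-ratio scaling, quantile normalization and with the replicate block. RRS1 was called lower in CTNNB1 under median-ratio scaling and without CTNNB1 replicate 1.

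Whether the arms differed was tested as the effect of CTNNB1 minus that of shAPC in a fit of all 12 libraries. The difference was positive, meaning a smaller fall or a rise in the ORF arm, for 5 of the 37 (13.5%) and negative for 0, beside 13.3% and 2.76% of the 11741 genes tested, of which 16.1% were called. The share of members was thus close to that of all genes. The 5 were NOLC1 (0.36, SE 0.08, limma adjusted p = 0.0086), DKC1 (0.27, SE 0.06, limma adjusted p = 0.012) and GNL3 (0.26, SE 0.08, limma adjusted p = 0.04), with DDX21 (0.24, SE 0.07, limma adjusted p = 0.032) and RRP9 (0.21, SE 0.07, limma adjusted p = 0.049). The median difference was 0.13 over the 37 and 0.11 over all genes. Median-ratio scaling moved the median of all genes to 0.00 and that of the members to 0.02, and of the 5 only NOLC1 was still called (2.7% of the members, beside 6.7% of all genes positive and 5.55% negative). DKC1 was lost there and kept its call in the 12 fits that each left out 1 library, as did NOLC1. GNL3 and DDX21 were both lost without GFP replicate 1, GFP replicate 2, shNT1 replicate 3, shAPC replicate 2 or shAPC replicate 3. GNL3 was lost as well without CTNNB1 replicate 1 and DDX21 without shNT1 replicate 1. RRP9 was kept only without CTNNB1 replicate 1 or shAPC replicate 1.

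Of the 37 genes, 7 carry snoRNA genes within them: NOP56, NOP58, DKC1, NCL, GNL3, WDR43 and PPAN, by the GENCODE v29 annotation. This is 18.9%, against 1.71% of the 10676 protein-coding genes tested. In shAPC 3 of 7 hosts fell, with a median of -0.15, and 11 of 30 others fell, with a median of -0.14, beside 14.9% of all genes called lower. In CTNNB1 the medians were 0.02 and -0.07. The values are those of the host genes, and snoRNAs were not analysed.

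Other genes of the pathway and the ribosomal proteins themselves were set beside the 37. Of 125 further ribosome biogenesis genes, 24 fell and 3 rose in shAPC (19.2% and 2.4%), with a median of -0.11. Over all genes tested in the same fit, 14.9% fell and 7.24% rose. The 19.2% is near the 19% called lower in a separate fit of genes averaging at least 5 TPM, in which the 125 were not counted. The called falls with the largest change were those of MDN1 (-0.44, SE 0.12, limma adjusted p = 0.025), a giant ATPase of the large subunit pathway, RRP8 (-0.34, SE 0.07, limma adjusted p = 0.0079) and URB2 (-0.32, SE 0.10, limma adjusted p = 0.048). The 3 rises were those of POLR1D (0.19), RSL24D1 (0.18) and NOP53 (0.17). Single libraries decided several of these calls: without shAPC replicate 1 the adjusted p was 0.088 for MDN1, 0.12 for URB2, 0.051 for POLR1D, 0.088 for RSL24D1 and 0.088 for NOP53. Without shAPC replicate 3 it was 0.095, 0.14, 0.063, 0.12 and 0.06 in the same order. RRP8 kept its call without each library. URB2 was not called under median-ratio scaling (0.064) or quantile normalization (0.079). In CTNNB1 0 of the 125 rose and 2 fell (1.6%, beside 7.16% of all genes), EMG1 (-0.32, SE 0.05, limma adjusted p = 0.0031) and MPHOSPH6 (-0.25, SE 0.05, limma adjusted p = 0.0045), with a median of -0.03.

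The genes of cytosolic ribosomal proteins, the parts that these factors assemble, rose in the hairpin arm where they were called. Of 80 tested, 27 rose (33.8%) and 0 fell in shAPC, with a median of 0.18, beside 7.24% of all genes higher and 14.9% lower. Under median-ratio scaling 33 rose (10.7% of all genes), and under quantile normalization 22 did (11.3% of all genes). They took between 22.1% and 23.0% of all TPM in the shNT1 libraries and between 24.6% and 26.9% in the shAPC libraries. Since TPM adds up to a fixed total, a larger share for these abundant mRNAs leaves less for all others. Their part in the lower values of the 37 was not tested. With the libraries rescaled, 15 members were called lower by median-ratio scaling (median -0.11), and quantile normalization left 8 (median -0.08), in place of 14 (median -0.15). In CTNNB1 1 of the 80 rose (16.3% of all genes) and 0 fell, with a median of -0.01. Under quantile normalization 7 of the 80 rose (11.6% of all genes) and 1 fell (10.3% of all genes). Neither share exceeded that of all genes.

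**Figure D4:**
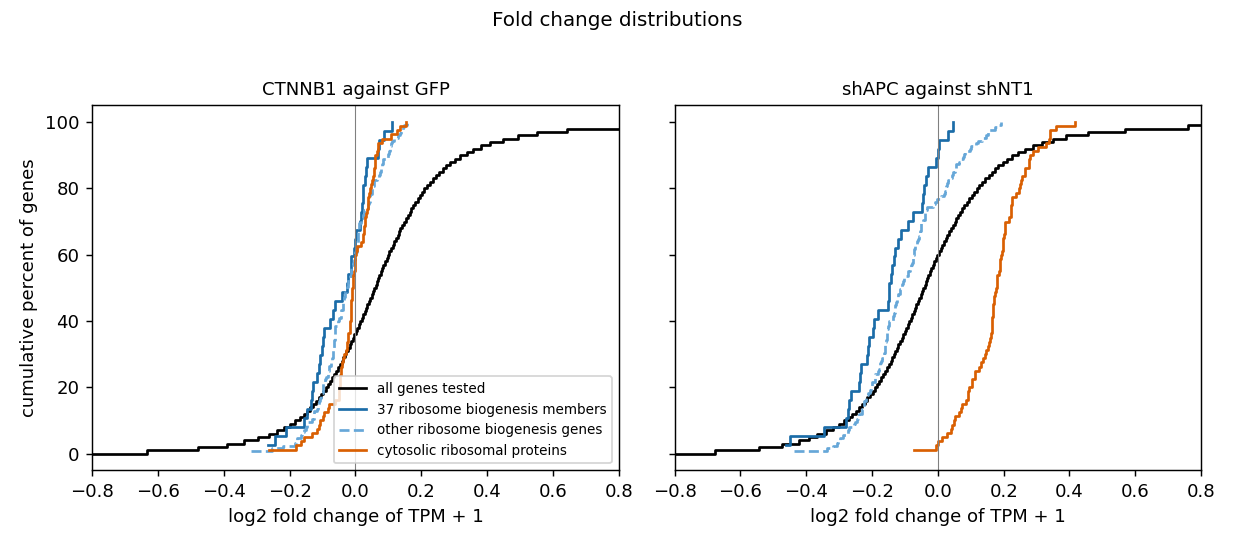
Cumulative percent of genes (y axis) by log2 fold change of TPM + 1 (x axis) in both arms, for all genes tested, the 37 ribosome biogenesis genes, 125 other genes of the pathway and 80 cytosolic ribosomal protein genes. In the shAPC panel both biogenesis curves lie left of the curve of all genes over most of their range and the ribosomal protein curve lies right of it, with medians of -0.15, -0.11, -0.04 and 0.18.

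MYC, by which the list was chosen, was itself at 127 ± 5.5 TPM with shNT1 and 111 ± 6.7 TPM with shAPC (SD, n = 3 each). It fell by 0.19 on the log2 scale (SE 0.06, limma adjusted p = 0.041), and the call was lost without any library but shAPC replicate 1 (adjusted p from 0.064 to 0.15). With all libraries kept it was lost under quantile normalization (0.14), without the variance trend (0.084) and without the filter (0.079). In GFP it was at 143 ± 7.1 TPM and in CTNNB1 at 129 ± 5.1 TPM, a difference of -0.14 (SE 0.05) that was not called (limma adjusted p = 0.08), but was under median-ratio scaling (-0.22, adjusted p = 0.027). The part of MYC in the values of the 37 was not tested.

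In the authors' deposited table for APC, 14 of the 37 had a negative log2 fold change at an adjusted p under 0.05 and 0 a positive one, and 13 of these were among the 14 called here. In the authors' deposited table for CTNNB1, 7 were lower and 0 higher, including both genes called here. Of the genes tested here, 11.2% were lower and 7.94% higher in the authors' deposited table for APC, and 10.4% lower and 9.37% higher in that for CTNNB1. In the authors' deposited tables NOLC1 had values of -0.42 for APC (limma adjusted p = 0.0024) and -0.17 for CTNNB1 (limma adjusted p = 0.023). RRP9 had -0.42 (limma adjusted p = 0.0015) and -0.32 (limma adjusted p = 0.02).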

How the data were processed

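RNA-seq was measured in 12 libraries of HT-29 cells, grouped by their labels. The authors deposited TPM per gene, and the submitters' processing notes name STAR 2.7.3a, limma and build hg38. Annotation, quantifier and strand setting are not given in the sources used here. Exons of the called members NOP16, GNL3, RRP12, NOP14 and WDR74 overlap those of other genes on the opposite strand. Exons of NOP2 and RRS1 overlap those of coding genes on the same strand. How shared reads were assigned there is unknown. The authors also deposited a limma table per comparison with log2 fold changes, p-values and adjusted p-values, and 2 score columns that were not used, per the file headers. Of the row names, 27 were dates and none is reported.

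Each arm was fitted with limma 3.58.1 (R 4.3.3) on log2(TPM + 1) over genes with a mean of at least 1 TPM, with moderated variances and a mean-variance trend. All 37 members passed this filter. The pseudocount of 1 understates changes of low genes. The difference between arms was a contrast over all 12 libraries. The fit was tested on simulated data. TPM keeps no depth.

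The fits were repeated with 0.1 as pseudocount, without the filter, with a minimum of 5 TPM, with median-ratio scaling, quantile normalization, with the replicate number as a block, without the variance trend, with all 4 groups together, at a threshold of 0.01, and without each library in turn. Medians over lists carry no test. The genes named with full statistics were the called members with the largest change in each arm (up to 6 each way), those called in the difference, a fixed set of the best known members of each role, up to 3 called genes each way of the other pathway genes, and MYC. LYAR, MYBBP1A, TCOF1, DDX18 and WDR12 fall outside this rule and were given theirs after their values were seen. Members, lists and rules were chosen with earlier results of these data known. Members were matched to GENCODE v29 by the Ensembl identifiers in the authors' deposited tables. The tested genes set beside them for snoRNAs were matched by symbol. Promoters come from RefSeq.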

Additional observations from a re-analysis of the deposited data

Results flagged for a closer look

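These 5 genes were flagged because the effect of CTNNB1 differed from that of shAPC in a test of the difference (limma, all 12 libraries). They made up 13.5% of the members, beside 13.3% of all genes called positive, so their number does not set the members apart. The median difference over all genes was 0.11. Under median-ratio scaling it was 0.0038, and of the 5 only NOLC1 was still called, beside 6.7% of all genes positive. The values below are log2 differences, CTNNB1 effect minus shAPC effect, with the range of adjusted p-values over the alternatives that kept all libraries. NOLC1, the snoRNP chaperone, differed by 0.36, with limma adjusted p-values from 0.006 to 0.025. DKC1, the pseudouridine synthase, differed by 0.27, with limma adjusted p-values from 0.01 to 0.13. GNL3, or nucleostemin, differed by 0.26, with limma adjusted p-values from 0.033 to 0.15. DDX21, the nucleolar helicase, differed by 0.24, with limma adjusted p-values from 0.028 to 0.13. RRP9, the U3 snoRNP protein, differed by 0.21, with limma adjusted p-values from 0.03 to 0.41. In all 5 the shAPC value was the lower of the pair. RRP9 fell in both arms and by less in CTNNB1. Vector, collection day and doxycycline differ between the arms and cannot be told apart from the perturbation.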

How the results depend on the processing

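No alternative run called a member higher in either arm or lower in the difference. Members called in CTNNB1 numbered 10 under median-ratio scaling (12.6% of all genes lower) and 4 with the replicate block (8.05%), and 1 to 5 without each library. Members called in shAPC numbered 8 under quantile normalization (11.6% of all genes lower) and 7 with the replicate block (9.74%). They numbered 5 at an adjusted p under 0.01, 8 without a filter, 9 without a variance trend, and 7 to 13 without each library. The difference was called in 1 member under median-ratio scaling (6.7% of all genes positive), 3 under quantile normalization (6.75%) and 2 with the replicate block (7.83%). It was called in 1 at an adjusted p under 0.01, 2 without a variance trend, and 2 to 9 without each library (9 without shAPC replicate 1). Counts given without a share of all genes are not read as results about the members. The median log2 fold change in CTNNB1 was -0.10 under median-ratio scaling and -0.0772 to -0.0102 without each library. In shAPC it was -0.11 under median-ratio scaling, -0.0783 under quantile normalization and -0.18 to -0.11 without each library. That of the difference was 0.0177 under median-ratio scaling, 0.0325 under quantile normalization and 0.10 to 0.17 without each library. The fit without the filter tested more genes, and each fit without a library had a smaller sample. Why the counts and medians changed was not tested.

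Among single named genes, 27 values changed sign, none of them called. In CTNNB1 under median-ratio scaling these were GNL3 (-0.0502), NCL (-0.05), NOP58 (-0.0045), NPM1 (-0.0019), POLR1A (-0.0531) and UTP20 (-0.0385), and under quantile normalization DDX21 (0.0067), POLR1A (-0.0207) and UTP20 (-0.0061). In shAPC these were PES1 under median-ratio scaling (0.0111) and NPM1 (-0.0281) and PES1 (0.0391) under quantile normalization. In the difference these were FBL (-0.032), NOP16 (-0.0461) and NPM1 (-0.0877) under median-ratio scaling and NOP16 (-0.0149) under quantile normalization. Without each library in turn, the CTNNB1 values ran from -0.0736 to 0.008 for DDX21, -0.0217 to 0.0556 for GNL3, -0.0344 to 0.0949 for NCL, -0.0363 to 0.0166 for NOP56, -0.0298 to 0.0616 for POLR1A and -0.052 to 0.0777 for UTP20. Those of NOP58 in shAPC ran from -0.12 to 0.0072, and in the difference those of NOP16 from -0.047 to 0.17 and of NPM1 from -0.0055 to 0.0484.

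The labels number replicates alike in all groups without saying what they mean. Deviations of same-numbered libraries correlated at 0.07 to 0.22 in the ORF arm, where each library correlated best with its own number. The mean there was 0.13 for the same number and -0.07 for different numbers. In the hairpin arm same-numbered libraries correlated at -0.21 to -0.01. The main fits of both arms did not pair the libraries. If the numbers do pair libraries in the ORF arm, its main fit ignores that pairing. With the replicate block the shAPC calls of NOP56, DKC1, NOP14, RRP12, UTP20, RCL1, DDX18 and MYC (limma adjusted p = 0.097) were not made. In CTNNB1 MYC (0.049), NOP2 and NOP16 were called lower in that fit, besides WDR74 and RRP9. In shAPC 13 of the 80 ribosomal protein genes were called higher there (16.2%), beside 5.19% of all genes. With the replicate block, 9.74% of all genes were called lower in shAPC and 8.05% in CTNNB1.

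Depth is unknown, so how far it limits the lowest member, PPAN, cannot be stated. With 3 libraries per group the spread between libraries limits the precision.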

Other observations

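The 3 CTNNB1 libraries were unequal for several members. In replicate 1 BOP1 stood at 30.7 TPM and NOP16 at 81.5 TPM, below the other 2 libraries (39.3 and 42.3 TPM, and 92.3 and 110.0 TPM). In the same library UTP20 stood at 47.1 TPM and NOP58 at 240 TPM, above the other 2 (39.2 and 39.2 TPM, and 210.3 and 217 TPM). MDN1, a pathway gene outside the 37, ranged from 23.9 to 39.3 TPM over the CTNNB1 libraries. These genes were chosen after their values were seen, and no explanation was tested.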
